A study of Mus musculus with 4 samples.

Results

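Scaffold proteins of the postsynaptic density were followed across cell classes, neuron subtypes and stages of the developing mouse superior colliculus. The 10 genes were Shank1, Shank2, Shank3, Homer1, Dlgap1, Dlgap2, Dlg1, Dlg2, Dlg3 and Dlg4, taken from the 31053 measured genes by symbol. The list was set with earlier results of these data known. All 10 were found. Nuclei came from C57BL/6J mice at embryonic day 19 (E19) and postnatal days 4, 8 and 21 (P4, P8 and P21), with 1 single-nucleus RNA library per stage, each made from tissue of several pooled animals. No treatment or genetic change was named in the labels.

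The superior colliculus is a midbrain centre that turns visual and other sensory input into orienting movements, and its synapses are built and refined around and after birth. The postsynaptic density is the protein layer under the membrane of an excitatory synapse. Dlg proteins (PSD-95 and its relatives) hold glutamate receptors and adhesion molecules at the membrane. Dlgap proteins (also called GKAP or SAPAP) bind Dlg proteins below and carry Shank proteins, and Shank proteins bind Homer, which couples the layer to metabotropic glutamate receptors and calcium stores. Dlg1, Dlg3 and other members also act at junctions and membranes of cells that are not neurons.

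The libraries held 2249 to 2585 nuclei and 19277512 to 31325079 unique molecular identifiers (UMIs, counts of single RNA molecules), 9724 nuclei in all, of which 7552 were neurons. Median depth per nucleus was 6828 UMIs at E19 and 11745 at P21, so stage and depth moved together. Classes and subtypes are those of the authors' annotation, which was built from the same counts. Summed marker lists were highest in the matching class for inhibitory neurons, astrocytes, committed and myelinating oligodendrocytes, microglia, vascular leptomeningeal cells (VLMCs, the fibroblast-like cells of the meninges and vessels), endothelial cells and dividing cells. The excitatory list was highest in endothelial cells, at 2756 to 4443 UMIs per 1000000 of the summed nuclei (CPM), against 999 to 1730 CPM in excitatory neurons. Slc17a7, a vesicular glutamate transporter on that list, was at 0 in endothelial cells. Of the 4 genes of the list tested against all neurons, 1 was higher in endothelial cells and 3 were lower (median log2 fold change -3.12), so the sum did not stand for the list. The precursor list was highest in astrocytes, ahead of the mixed oligodendrocyte lineage. The class labelled epithelial ranked the seventh of 9 for epithelial and choroid plexus markers, with Folr1, Clic6 and Ccdc153 at 0. That list was highest in astrocytes, at 6.45 to 705 CPM over libraries, so it could neither back nor refute the label. Between libraries, 9 cell barcodes recurred.

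All 10 genes lie on the plus strand (GRCm38). Shank1 spans 44310253 to 44360572 of chromosome 7, Shank2 spans 144001928 to 144424494 of the same chromosome, and Dlg2 spans 90476672 to 92449247 there, 1973 kb in all. Shank3 lies on chromosome 15 (89499623 to 89560261), Homer1 on chromosome 13 (93299635 to 93405129), Dlgap1 on chromosome 17 (69969073 to 70821413) and Dlgap2 on chromosome 8 (14095865 to 14847680). Dlg1 lies on chromosome 16 (31663443 to 31875129), Dlg3 on chromosome X (100767722 to 100818410) and Dlg4 on chromosome 11 (70016942 to 70047522). Intronic reads entered the counts, so UMIs could come from anywhere in a gene span. Shank1, Shank2, Shank3, Dlgap1, Dlgap2 and Dlg2 each overlap a measured gene on the opposite strand. The labels do not state strand-aware counting, and UMIs of those 6 genes may therefore include some of the partner. Dlg2 also overlaps a measured gene on its own strand, Gm45159, which strand would not separate.

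Start-site windows of 300 bases (250 before and 50 after the start, RefSeq, GRCm38.p6) were held for 7 members, 17 windows in all. GGGCGG, the core of the GC box bound by Sp-family factors, was searched on both strands, where it reads CCGCCC on the opposite one. It occurred in 5 of the 17 windows and in 35.7% of all 32851 windows. The windows of Shank3 and Dlg1 are shown because these were the members whose higher level in excitatory neurons held without any 1 library, and they also varied together across neuron subtypes. Capitals mark the motif on either strand. The Shank3 window (chr15:89499358-89499657, plus strand) is 81% G or C, above 99.3% of all windows, with 40 CG pairs and 4 motif matches. Dlg1 had 4 windows, of which the one richest in G and C is shown (chr16:31663685-31663984, plus strand), at 71% G or C, above 91.8% of windows, with 27 CG pairs and 2 matches. The other 3 were 33.7% to 47.3% G or C, with 1, 0 and 0 matches. A match is a run of letters and not a shown binding site.
Shank3: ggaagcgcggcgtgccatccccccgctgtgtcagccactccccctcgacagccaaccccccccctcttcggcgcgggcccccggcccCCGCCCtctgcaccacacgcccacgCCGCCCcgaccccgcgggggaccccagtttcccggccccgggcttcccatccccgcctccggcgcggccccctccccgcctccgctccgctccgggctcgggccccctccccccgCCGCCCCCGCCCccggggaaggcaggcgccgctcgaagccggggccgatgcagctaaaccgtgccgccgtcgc
Dlg1: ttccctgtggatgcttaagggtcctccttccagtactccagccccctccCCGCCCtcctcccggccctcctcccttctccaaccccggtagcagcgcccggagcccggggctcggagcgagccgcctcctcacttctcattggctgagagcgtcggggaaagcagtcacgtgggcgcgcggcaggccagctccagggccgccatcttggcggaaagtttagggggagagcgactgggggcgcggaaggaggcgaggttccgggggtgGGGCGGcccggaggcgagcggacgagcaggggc

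Levels of different genes were compared per length, as CPM per 100 kb of gene span averaged over the 4 libraries of all neurons. Shank1 was highest at 499 CPM per 100 kb (352 to 590 over libraries), followed by Dlg4, the gene of PSD-95, at 345 (318 to 367) and Shank3 at 227 (186 to 268). Dlg2 (PSD-93) stood at 165 and Dlgap1 at 142. Dlg3 (SAP102) had 89.1, Homer1 71.5, Dlgap2 70.5, Shank2 65.1 and Dlg1 (SAP97) 61.9 CPM per 100 kb. Neighbours in this order overlapped in their ranges over libraries, except at the steps from Dlg4 to Shank3 and from Dlgap1 to Dlg3. The order depends on this scaling, and whether UMIs of 3′ libraries scale with gene span was not tested. Shank1, Dlg4 and Shank3 are short members, at 50.3, 30.6 and 60.6 kb. As plain CPM, Dlg2 was highest in neurons at 2476 to 4691, followed by Dlgap1 at 1032 to 1385. Below, levels are CPM and are compared only within a gene.

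The question of stages was which scaffolds differ between E19 and P21 in neurons. Dlg2 was higher at P21 in both neuron classes, Dlg1 and Dlgap1 passed 1.5-fold in inhibitory neurons, and Shank2 was lower by more than 1.5-fold in excitatory neurons. Each stage had 1 library, so no test between stages exists. Values are log2 ratios of CPM plus 5, with 95% intervals that cover counting error only. Past 1.5-fold between E19 and P21, 1 member was higher and 1 lower in excitatory neurons, where 12.8% of 7650 genes (those reaching 20 CPM at either stage) were higher and 21.5% lower. In inhibitory neurons 3 members were higher and none lower, against 14.6% and 21.4% of 7807 genes. Shank1 was also lower at P21 but missed the cut, at -0.52 (-0.60 to -0.45) in excitatory and -0.58 (-0.68 to -0.49) in inhibitory neurons. Inhibitory Dlgap1 passed it narrowly, at 0.59, so the cut parts changes of near-equal size.

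Among the Dlg genes, Dlg2 measured 2597, 2689, 3315 and 5076 CPM in excitatory neurons at E19, P4, P8 and P21, and 2241, 2611, 2975 and 4194 CPM in inhibitory neurons. Its level stood higher at each later stage in both classes, and P21 over E19 gave a log2 ratio of 0.97 (0.95 to 0.98) and 0.90 (0.88 to 0.93). Dlg1, a trafficking partner of AMPA and NMDA receptors, measured 131, 130, 138 and 182 CPM in excitatory and 79.7, 96.1, 101 and 153 CPM in inhibitory neurons. P21 was the highest of the 4 in each class, with log2 ratios to E19 of 0.46 (0.37 to 0.55) and 0.90 (0.77 to 1.04). With the 11 excitatory subtypes of at least 20 nuclei at both stages weighted alike, the Dlg1 ratio was 0.81 in place of 0.46. That value leaves out EN7 and EN11, so it changes the set of subtypes as well as their weights. Dlg3, the member known as the early-expressed partner of NMDA receptors, measured 48.0, 50.4, 40.6 and 34.0 CPM in excitatory and 48.6, 52.0, 50.6 and 39.4 CPM in inhibitory neurons. It was lowest at P21 in both classes, with ratios of -0.45 (-0.60 to -0.29) and -0.27 (-0.47 to -0.08). Dlg4, the main scaffold of mature excitatory synapses, measured 112, 107, 105 and 117 CPM in excitatory and 101, 99.4, 88.7 and 107 CPM in inhibitory neurons. Its ratios of 0.06 (-0.04 to 0.16) and 0.08 (-0.06 to 0.21) had intervals that include 0.

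As class sums, the Shank genes had their lowest level at P21 in both neuron classes. Shank1 measured 267, 305, 280 and 184 CPM in excitatory neurons and 253, 278, 254 and 168 CPM in inhibitory neurons. Shank2 measured 311, 312, 284 and 185 CPM and 290, 317, 289 and 214 CPM. Shank3 measured 138, 173, 157 and 125 CPM and 110, 139, 131 and 96.9 CPM. P21 lay below every other library for all 3 genes in these sums, and P4 was the highest, although Shank2 in excitatory neurons did not differ between E19 and P4 beyond counting error. Within subtypes Shank3 at P21 was not lower than at E19 in most cases: it was higher in 6 of 11 excitatory subtypes (median 0.01) and 8 of 12 inhibitory ones (median 0.14). The drop from P8 to P21 was -0.59 (-0.66 to -0.52) for Shank1, -0.61 (-0.68 to -0.54) for Shank2 and -0.31 (-0.40 to -0.23) for Shank3 in excitatory neurons. In inhibitory neurons it was -0.58, -0.43 and -0.42. Shank1 and Shank2 passed 1.5-fold at this step in excitatory neurons, as did Dlg2 in the other direction. At that step 7.91% of genes were higher and 9.72% lower in excitatory neurons. In inhibitory neurons no member passed, beside 18.9% of genes in either direction.

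Of the Dlgap linkers, Dlgap1 measured 1060, 1200, 1256 and 1312 CPM in excitatory neurons and 978, 1111, 1264 and 1478 CPM in inhibitory neurons. It stood higher at each later stage, and P21 over E19 gave 0.31 (0.27 to 0.34) and 0.59 (0.55 to 0.64). Dlgap2 measured 523, 468, 694 and 554 CPM in excitatory neurons and 442, 454, 532 and 524 CPM in inhibitory neurons. The excitatory step from P4 to P8 was 0.56, and 0.36 without the subtype EN7, which held 191 P4 nuclei but 1 P8 nucleus and had 165 CPM of Dlgap2 at P4. Homer1, whose short activity-induced form and long forms were counted together, measured 72.9, 69.1, 70.4 and 98.6 CPM in excitatory and 68.3, 77.8, 70.1 and 75.1 CPM in inhibitory neurons. The excitatory P21 library was above the others, at 0.41 (0.30 to 0.53) over E19, and the inhibitory interval included 0, at 0.13 (-0.03 to 0.29). No member passed 1.5-fold from E19 to P4 or from P4 to P8 in either class, beside 6.42% and 6.10% of genes in excitatory and 7.27% and 4.15% in inhibitory neurons.

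**Figure D1:**
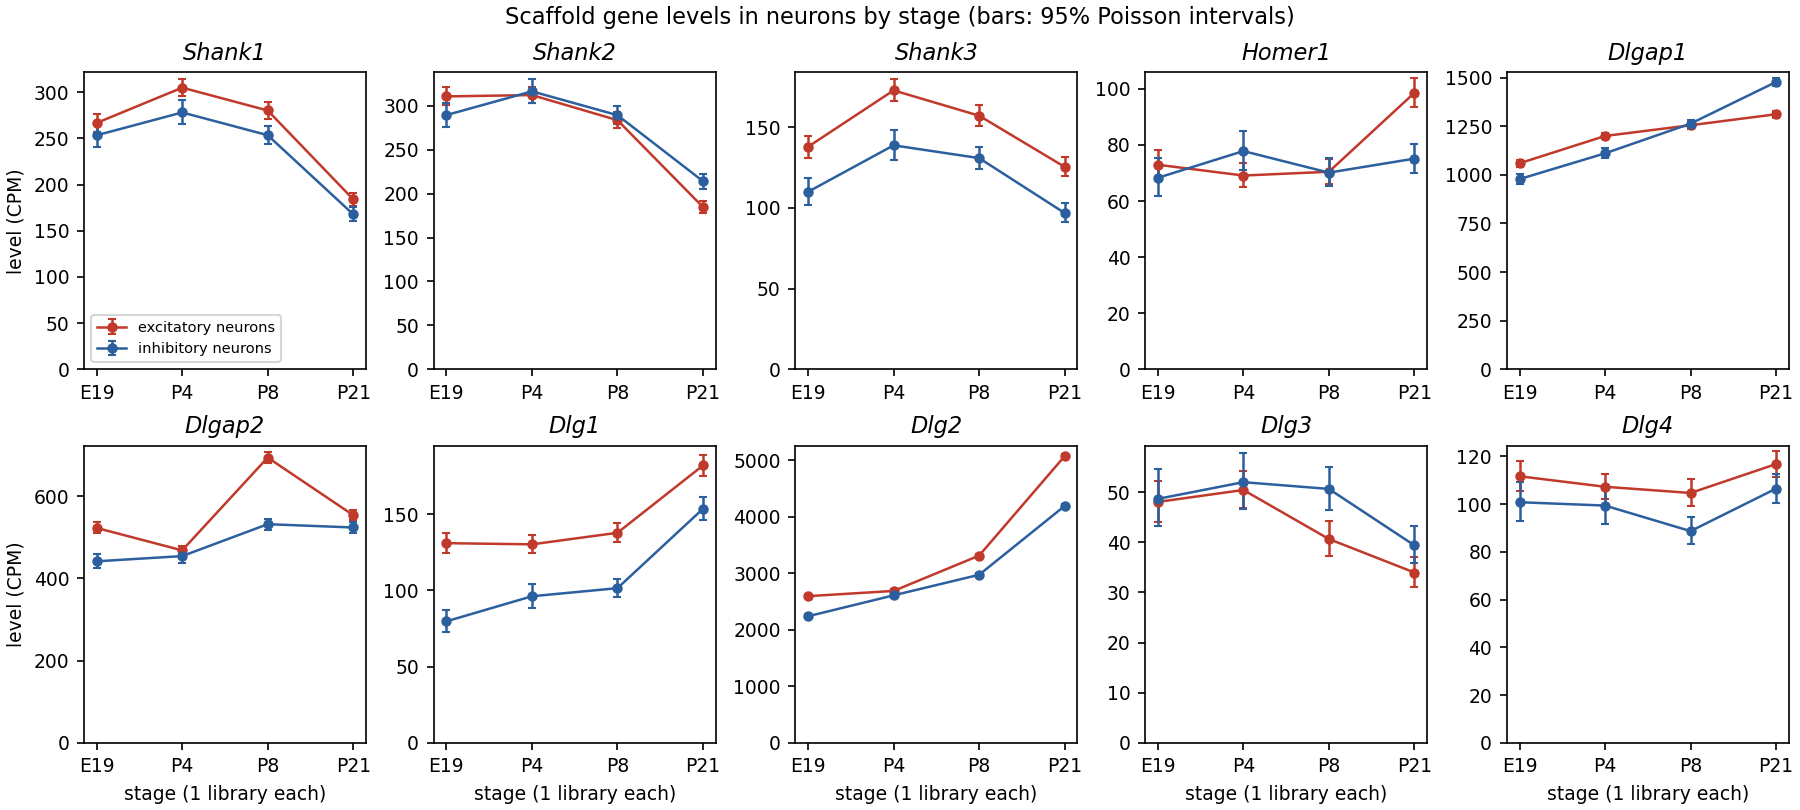
Level of each scaffold gene (CPM, vertical axis from 0) in excitatory and inhibitory neurons at the 4 stages, with exact 95% Poisson intervals. Dlg2 is at 5076 CPM in excitatory neurons at P21 against 2597 at E19, and the Shank genes are lowest at P21.

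Subtypes were captured in unlike numbers at the 4 stages, so the P8 to P21 step was also taken inside each subtype with at least 20 nuclei in both libraries, 11 excitatory and 12 inhibitory. Shank1 was lower at P21 in 11 of 11 and 12 of 12 subtypes, and so was Shank2. Shank3 was lower in 10 of 11 and 12 of 12, the exception being EN4 at 0.21. Dlg2 was higher in 11 of 11 and 12 of 12, and Dlg1 in 10 of 11 and 11 of 12. Homer1 was higher in 10 of 11 excitatory subtypes, with a median of 0.50, and in 5 of 12 inhibitory subtypes, with a median of -0.03. The difference between these classes was not tested. All subtypes of a library share its depth and preparation, so they are not replicates of the stage.

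**Figure D2:**
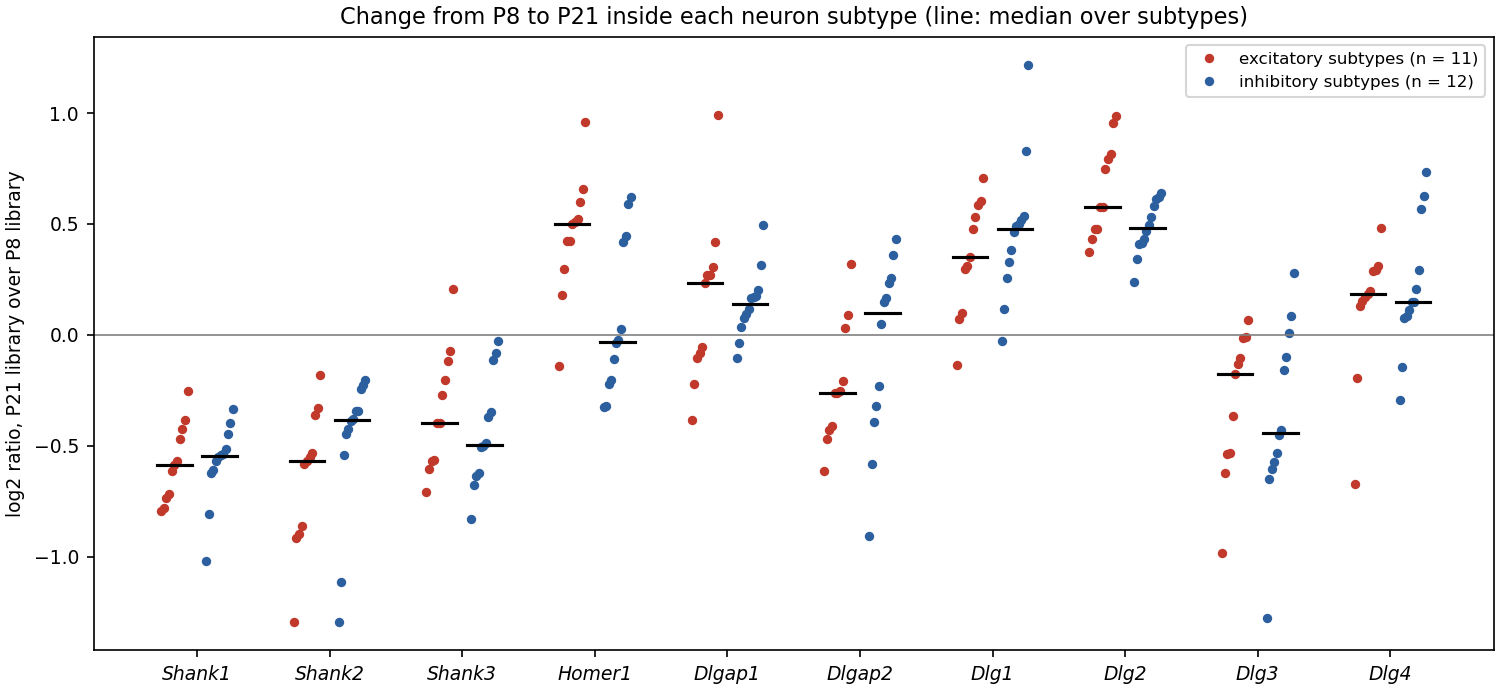
Log2 ratio of the P21 to the P8 library for each scaffold gene inside each neuron subtype (points, 11 excitatory and 12 inhibitory), with the median over subtypes as a line and 0 as no difference. Every point of Shank1 and Shank2 lies below 0 and every point of Dlg2 above 0.

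Ratios of UMIs within a family do not depend on the scaling of a library. In excitatory neurons Shank1 had 1.93, 1.76, 1.78 and 1.47 UMIs for each Shank3 UMI at E19, P4, P8 and P21, and in inhibitory neurons 2.30, 2.003, 1.94 and 1.73. Shank2 had 2.25, 1.81, 1.80 and 1.47 for each Shank3 UMI in excitatory neurons, and 2.63, 2.28, 2.21 and 2.21 in inhibitory neurons. Shank3 therefore made up a larger share of Shank UMIs at P21 than at E19 in both classes. Dlg4 had 2.32, 2.13, 2.58 and 3.44 UMIs for each Dlg3 UMI in excitatory neurons and 2.07, 1.91, 1.75 and 2.71 in inhibitory neurons, with P21 the highest in each. Dlg4 to Dlg1 went from 0.853 at E19 to 0.642 at P21 in excitatory neurons. In inhibitory neurons it was 1.27, 1.03, 0.875 and 0.694, with more Dlg4 than Dlg1 UMIs at E19 and fewer at P8 and P21. Of 14 pair and class combinations, 12 differed between E19 and P21 beyond counting error, and 8 did after every nucleus was thinned to 2000 UMIs.

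The next question was which scaffolds differ between excitatory and inhibitory neurons. As class sums, Shank3 and Dlg1 were higher in excitatory neurons. Dlg4, Shank1 and Dlgap2 were called higher too, in ways that depended on libraries and settings, and no member was called lower. Summed counts of the classes were compared in edgeR's quasi-likelihood test with the library as a block, 4 libraries of each class, and Benjamini-Hochberg adjustment over 14799 genes. The 5 of 10 called members stand beside 9.48% of all genes higher and 7.72% lower. At an unadjusted p under 0.05 there were 6 members, the sixth being Dlg2. With library size alone in place of TMM scaling, the share of higher among all called genes was 41.1% in place of 55.1%, and 2 members were called.

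Shank3, whose loss is known from Phelan-McDermid syndrome, was 138, 173, 157 and 125 CPM in excitatory against 110, 139, 131 and 96.9 CPM in inhibitory neurons. The excitatory value was above the inhibitory one in all 4 libraries, and the log2 fold change was 0.37 ± 0.05 (SE, adjusted p = 0.00158). Dlg1 was also higher in all 4 libraries, by 0.68, 0.42, 0.42 and 0.24 at E19, P4, P8 and P21, with a fitted change of 0.50 ± 0.07 (adjusted p = 0.00261). These 2 calls held without each library in turn, with adjusted p of 0.00492 to 0.00895 for Shank3 and 0.00169 to 0.0189 for Dlg1. They compare class sums. Subtype means overlapped between the classes, among subtypes with at least 20 nuclei in 3 or more libraries. For Dlg1 the lowest excitatory mean was 84.4 CPM (EN5) and the highest inhibitory one 149 CPM (IN5). For Shank3 these were 115 CPM (EN13) and 139 CPM (IN1). The highest mean was excitatory and the lowest inhibitory for each gene. The part of the subtype mix in the class ratios was not tested. The other calls were smaller. Dlg4 changed by 0.20 (adjusted p = 0.0196), Shank1 by 0.17 (adjusted p = 0.0447) and Dlgap2 by 0.23 (adjusted p = 0.0451), each higher in 4 of 4 libraries. Dlg4 lost its call without E19 (adjusted p = 0.0552), P4 (0.0539) or P8 (0.103), Dlgap2 without E19 (0.136), P4 (0.0624) or P8 (0.186), and Shank1 without any 1 of the 4 (0.0738 to 0.154).

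Dlg2 had 0.22 (adjusted p = 0.0526) and was higher in 4 of 4 libraries. Over 11 alternative settings Dlg2 was called in 4, as was Dlg4, while Shank1 was called in 1 and Dlgap2 in 5. Shank3 and Dlg1 were called in 10 each. Homer1 had 0.13 (adjusted p = 0.335), Dlgap1 0.06 (adjusted p = 0.607), Shank2 0.01 (adjusted p = 0.965) and Dlg3 -0.11 (adjusted p = 0.308). For Shank2 the excitatory value was above the inhibitory one at E19 by 0.10 and below it at P21 by a log2 ratio of -0.21, and its fitted sign changed with the scaling. Homer1 at P21 stood 0.37 higher in excitatory neurons, against -0.16 at P4.

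**Figure D3:**
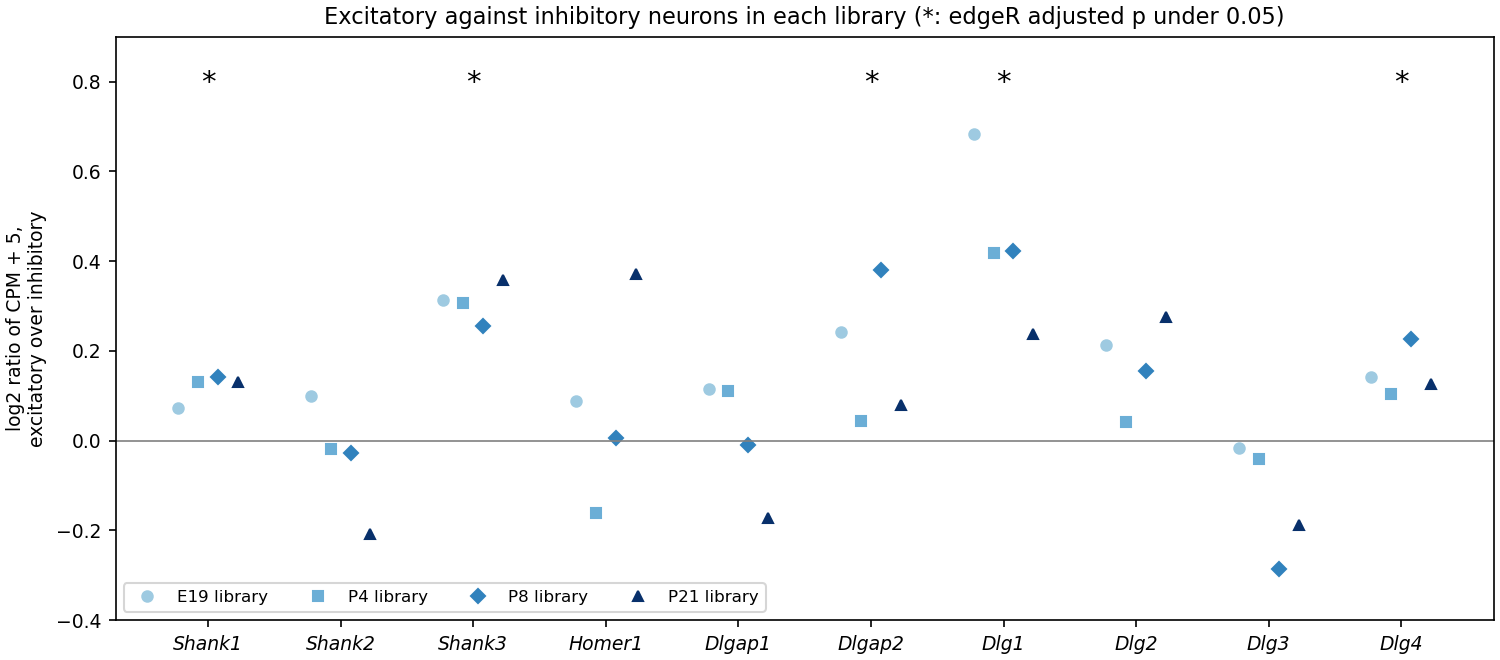
Log2 ratio of CPM plus 5, excitatory over inhibitory neurons, for each scaffold gene (horizontal axis) in each of the 4 libraries (symbols), with a star where edgeR's adjusted p was under 0.05. Shank3 and Dlg1 lie above 0 in all 4 libraries, and Dlg3 lies below 0 in all 4 without passing the test.

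A list of 67 other postsynaptic density genes was set beside the members. Of 65 tested, 24 were higher in excitatory neurons and 5 lower, with a median log2 fold change of 0.14 against -0.02 over all genes. The largest rises on the list were Rasgrf2, a Ras and Rac activator (0.82, adjusted p = 0.000146), Dlgap3, the family member studied in compulsive grooming (0.62, adjusted p = 0.000748), Cttnbp2, a cortactin-binding spine protein (0.61), and Frmpd4, a PSD-95 and mGluR partner (0.54). The largest falls were Nos1ap, the adaptor of neuronal nitric oxide synthase (-0.66, adjusted p = 0.0265), Sipa1l1, a spine Rap regulator (-0.60), Grip1, a glutamate receptor interacting protein (-0.53), and Nos1 itself (-0.53). The gephyrin side, the scaffold of inhibitory synapses, had 1 of 6 tested genes higher. Between E19 and P21 the 67-gene list had 10 genes higher and 11 lower past 1.5-fold among 59 in excitatory neurons, and 13 and 10 among 58 in inhibitory neurons. Camk2a, the kinase abundant in mature postsynaptic densities, was 104 CPM at E19 and 318 CPM at P21 in excitatory neurons and 88.9 and 291 CPM in inhibitory neurons. Tanc1, Cit and Baiap2 were the other 3 largest rises in both classes. Dbn1, the actin-binding drebrin, was 169 and 71.2 CPM in excitatory and 170 and 57.3 CPM in inhibitory neurons, and Lin7c and Prr7 were also among the 4 largest falls in both classes, with Prickle2 in excitatory and Lzts1 in inhibitory neurons. On the gephyrin side 2 of 6 genes were lower in excitatory and 1 of 6 in inhibitory neurons.

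Across 23 neuron subtypes with at least 20 nuclei in 3 or more libraries, Dlgap2, Dlg1 and Dlgap1 had the widest ranges of mean log2 level and Dlg4 the narrowest. Subtypes are clusters of these counts, so their levels are a description. The subtype means of Dlgap2 ran from 230 CPM in IN12 to 856 CPM in EN4, a range of 1.90 on the log2 scale. EN4 was the first of all subtypes at P4, P8 and P21, at 904, 1047 and 786 CPM, and the third at E19 with 687 CPM. IN9 and IN12 were among the 5 lowest in every library. Dlg1 ran from 50.05 CPM in IN12 to 171 CPM in EN2, a range of 1.66, and IN12 and IN9 were again among the lowest 4 in every library. Dlgap1 ran from 719 CPM in IN7 to 1992 CPM in IN4, and IN4 was highest in all 4 libraries, at 1752, 1774, 2093 and 2349 CPM. For Dlg2 the lowest means were 2200 CPM in EN13 and 2239 CPM in IN9 and the highest was 4206 CPM in EN5. For Shank3 the lowest was 81.7 CPM in IN9 and the highest were 154 CPM in EN1 and 156 CPM in EN12. The ranges were 0.67 for Shank1, 0.70 for Shank2, 0.65 for Homer1, 0.62 for Dlg3 and 0.50 for Dlg4. Under a minimum of 50 nuclei a subtype, 4 of the 10 members kept their highest subtype and 1 its lowest.

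Likeness was measured as Pearson's r over 96 sums of 1 neuron subtype in 1 library, centred on each library, among 3792 genes. These points share libraries and unlike depths, so r is a description. Among members, Shank3 and Dlg1 were most alike (r = 0.50), then Dlgap2 and Dlg2 (0.48) and Shank1 and Shank3 (0.42). Shank1 and Shank2 had 0.08 and Dlgap1 and Dlgap2 0.08. The genes most like Shank3 were Phlpp2 (0.65), B230209E15Rik (0.65) and Ino80 (0.64), and for Dlg1 Ak5 (0.63), Phlpp2 (0.62) and Sez6 (0.62). For Dlgap2 they were Tshz3 (0.67), Lingo2 (0.62) and Ssbp2 (0.60), and Shank1 was like Scn2a (0.58) and Jakmip1 (0.58). Dlg2 was most like Mgat4c (0.52), Gm26848 (0.52) and Erbb4 (0.51), and Dlgap1 most like Chsy3 (0.50), Mdga1 (0.49) and Slc35f1 (0.49). The highest values were 0.48 for Dlg3 (Clk1, then Kdm2a and Peli1), 0.48 for Shank2 (Tfap2b, then Tmem44 and Snrpn), 0.45 for Dlg4 (Sgsm2, then Rasgrp2 and Haghl) and 0.43 for Homer1 (Ppp3ca, then Ppp2r3a and Frs2). Of the 30 genes ranked in this way, 3 per member, 6 remained under the minimum of 50 nuclei.

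Outside neurons the scaffolds fell into groups. The Shank genes, Dlgap2 and Dlg2 were lower in astrocytes and in the oligodendrocyte lineage than in neurons, Dlg1 was higher, and Dlg3 and Dlg4 were not called in either. These class tests share the neuron sums. RNA of 6 neuron markers was present in every other class, at a median over libraries of 24.3% of the neuron level in astrocytes, 36.5% in the oligodendrocyte lineage, 14.9% in VLMCs, 11.8% in endothelial cells and 30.3% in microglia. Its part in the levels below was not tested.

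In astrocytes 1 member was higher and 6 lower, beside 21.9% and 23.1% of 14787 genes. Dlgap2 was 38.9, 15.8, 33.1 and 24.0 CPM against a neuron mean of 530 CPM, a log2 fold change of -4.50 ± 0.23 (adjusted p = 1.4e-05). Shank1 was 35.6, 38.6, 19.4 and 11.7 CPM against 251 CPM (-3.57 ± 0.21). Every astrocyte value of these genes lay below every neuron value. Shank2 fell less, by 1.36 on the log2 scale, with 171, 201, 114 and 55.4 CPM at the 4 stages, and Shank3 by 2.13 and Dlg2 by 2.94. Dlg1, at 269, 256, 243 and 217 CPM, was above the neurons of the same library in all 4 (0.71 ± 0.16, adjusted p = 0.00923). Dlgap1, at 1228, 1680, 1985 and 1520 CPM, was above the neurons of its library in 4 of 4 as CPM but was not called (0.17, adjusted p = 0.412), and neither was Dlg4 at 123 to 140 CPM (0.09, adjusted p = 0.554). Homer1 had -0.62 (adjusted p = 0.012), lost without P4 (adjusted p = 0.0673) and with library size alone (0.0755). Under that scaling the median over all genes moved from -0.0019 to 0.21 and the higher share of called genes from 48.6% to 62.9%.

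Fibrous astrocytes, the form typical of white matter, held more Shank2 than protoplasmic ones in all 4 libraries, at 325 against 130 CPM (E19), 532 against 106 (P4), 168 against 103 (P8) and 146 against 40.7 (P21). Dlg1 was 331 against 253, 430 against 207, 409 against 207 and 375 against 192 CPM. The Shank2 intervals excluded 0 in every library, and those of Dlg1 at P4, P8 and P21. Dlgap1 went the other way at P4, P8 and P21, at 1033 against 1866, 1122 against 2172 and 1001 against 1604 CPM. Neuron markers stood at 16.2% to 28.7% of the neuron level in fibrous and 11.6% to 29.8% in protoplasmic astrocytes.

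In the oligodendrocyte lineage 1 member was higher and 5 lower, beside 9.17% and 13.1% of 14347 genes. Shank1 (-2.15 ± 0.28), Shank2 (-2.37 ± 0.29), Shank3 (-2.05 ± 0.27) and Dlgap2 (-2.43 ± 0.35) were lower in all 4 libraries, each with an adjusted p of at most 0.00152. Dlg2 (-1.29 ± 0.31, adjusted p = 0.0185) was lower too, and its call was lost without E19 (0.0994), P4 (0.118) or P8 (0.0976). Dlg1 was 214, 224, 259 and 814 CPM against a neuron mean of 131 CPM (1.19 ± 0.33, adjusted p = 0.0305), with P21 far above the other libraries. That call was lost without E19 (0.0601), P4 (0.0826) or P8 (0.106). Dlgap1 was 2616, 2641 and 3191 CPM at E19, P4 and P8 and 666 CPM at P21. It was not called over the 4 libraries (0.61 ± 0.41, adjusted p = 0.335) and was higher without P21, by 1.10 (adjusted p = 2.3e-09).

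The lineage at P21 held 64 precursors (OPCs), 55 committed and 187 myelinating oligodendrocytes, and the last form had 1 nucleus in the earlier libraries together. OPCs kept Dlgap1 high at every stage, at 2487, 2800, 3079 and 2852 CPM, while their Dlg1 was 215, 178, 172 and 274 CPM. At P21 Dlgap1 was 1130 CPM in committed and 104 CPM in myelinating cells, a log2 ratio to OPCs of -1.33 (-1.49 to -1.18) and -4.71 (-4.94 to -4.48). Dlg1 was 941 and 877 CPM there, 1.76 (1.43 to 2.10) and 1.66 (1.35 to 1.98) above OPCs. At P21 both later forms thus had less Dlgap1 and more Dlg1 than OPCs. Dlg2 did not follow a straight course, with 2461 CPM in OPCs, 683 in committed and 1850 in myelinating cells. Shank2 went from 117 to 10.3 to 3.19 CPM and Dlgap2 from 187 to 32.9 to 16.0 CPM. Shank1 was 83.5, 4.12 and 12.8 CPM, Shank3 73.5, 10.3 and 5.74 CPM and Dlg4 114, 37.1 and 36.4 CPM. At P8 committed cells already held 433 CPM of Dlg1 against 172 in OPCs, but 3526 CPM of Dlgap1 against 3079. Neuron markers were at 27.0% of the neuron level in P21 OPCs, 17.01% in committed and 17.7% in myelinating cells. These are comparisons within 1 library with no replicate check.

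**Figure D4:**
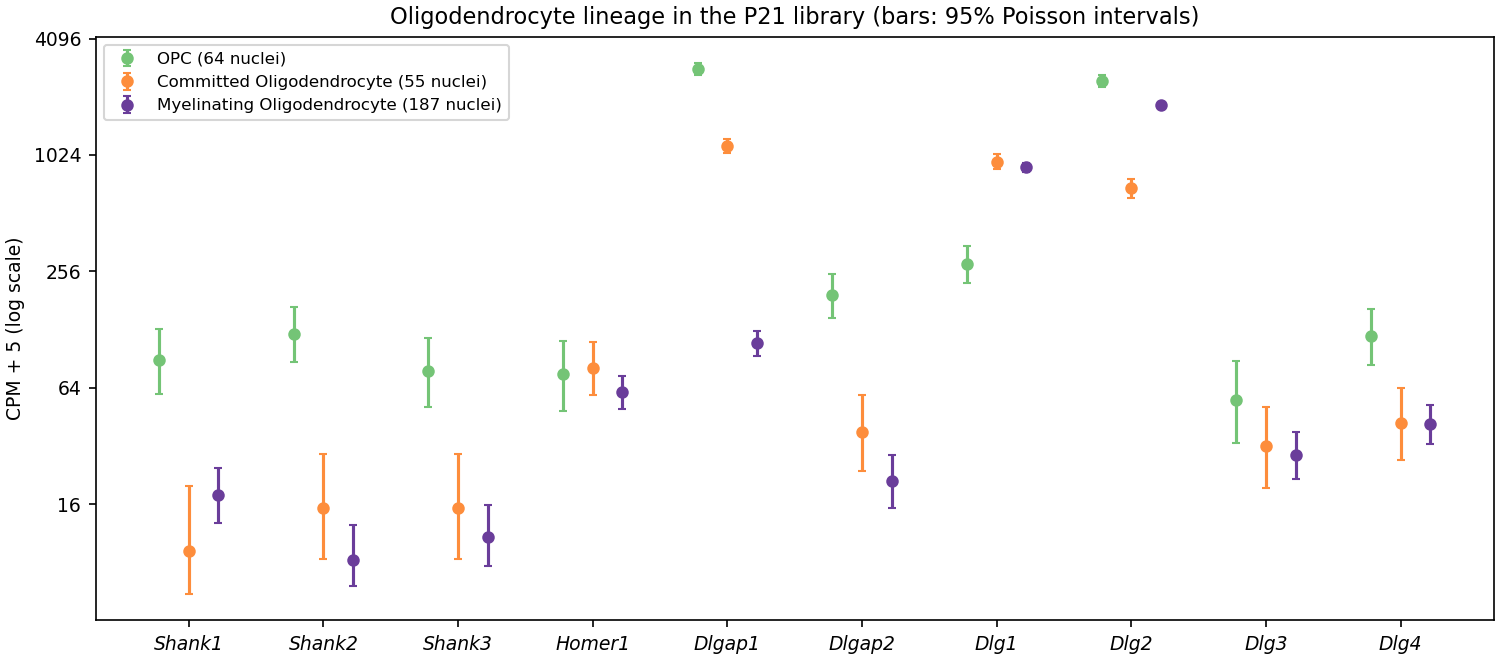
Level of each scaffold gene (CPM plus 5, log scale) in the oligodendrocyte lineage of the P21 library, with exact 95% Poisson intervals, for 64 OPCs, 55 committed and 187 myelinating nuclei. Dlgap1 is at 2852 CPM in OPCs and 104 CPM in myelinating cells, and Dlg1 at 274 and 877 CPM.

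VLMCs and endothelial cells were tested after their levels had been seen. In VLMCs 1 member was higher and 8 lower, beside 21.5% and 26.3% of 14751 genes. Dlg1 was 536, 540, 582 and 538 CPM, at 318% to 480% of the neuron level of its library (1.76 ± 0.17, adjusted p = 4.9e-07), from 118 to 494 UMIs a library. Shank2, at 3.27 to 6.23 CPM, came from at most 3 UMIs in each library, and Shank1 was 5.45 to 22.7 CPM. Shank3 (-2.33), Homer1 (-1.24), Dlgap1 (-3.94), Dlgap2 (-5.13) and Dlg2 (-3.82) were also lower. Dlg4 had -0.44 (adjusted p = 0.049) and was lower in 3 of 4 libraries as CPM. It lost its call without E19 (adjusted p = 0.0601), P4 (0.0794) or P8 (0.219), with library size alone (0.567), with DESeq2 (0.0681) and with no library block (0.094). Dlg3 was not called. With library size alone the median over all genes moved from -0.09 to 0.21, and the higher share of called genes from 45.0% to 59.6%.

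Endothelial cells numbered 12 to 22 nuclei a library. There Shank3 was 126, 275, 330 and 230 CPM, from 14, 63, 64 and 17 UMIs, against 128, 163, 145 and 113 CPM in neurons. Shank3 was at 98.2% to 227% of the neuron level of its library, while neuron markers were at 9.21% to 16.2%. The 2 other Shank genes had at most 30.6 and 45.1 CPM and were at 0 at P21, where 3 counts would give 40.7 CPM. These Shank3 UMIs came from 4 of 13 nuclei at E19, 13 of 22 at P4, 9 of 15 at P8 and 5 of 12 at P21. The highest single nucleus gave 5, 18, 18 and 7 of them. After thinning to 2000 UMIs, 19 of 62 endothelial nuclei held a Shank3 UMI (30.6%) against 1 of 90 microglia (1.11%). The unthinned shares were 50% and 2.22%, at median depths of 5026 and 3219 UMIs. These nuclei were pooled over the 4 libraries and are not replicates, and any nucleus under 2000 UMIs counted as holding none. Microglia had the lowest Shank3 of the other classes, at a median of 0% of the neuron level, against 25.8% in astrocytes and 24.2% in VLMCs. In the microglia libraries at 0, 3 counts would give 27.0 to 53.1 CPM. Compared with neurons, 8 members were lower in endothelial cells, beside 25.0% of 14106 genes lower and 16.0% higher. Shank3 (0.20 ± 0.27, adjusted p = 0.584) and Dlg1 (0.22 ± 0.26, adjusted p = 0.522) were the 2 not called. With library size alone they were called higher, at 0.78 (adjusted p = 0.0156) and 0.80 (adjusted p = 0.00898). That scaling moved the median over all genes from -0.33 to 0.25 and the higher share of called genes from 39.0% to 62.0%.

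Microglia numbered 13 to 33 nuclei a library. Their Shank3 was at 0 in E19, P4 and P21, where 3 counts would give 53.1, 41.3 and 27.0 CPM. Dlg1 there was at 138% to 152% of the neuron level. Dividing cells held Dlgap1 at 131% to 211% and Dlg2 at 18.5% to 62.8% of the neuron level. The class labelled epithelial held Dlg1 at 199% to 364% and Dlgap1 at 6.57% to 30.9%. Thus Dlg1 was above the neuron level of its library in every library of all 7 other classes, as sums of CPM. Microglia, dividing cells and the class labelled epithelial were not tested, and Dlg1 was not called in endothelial cells. With library size alone, the median over all genes also lay above neurons. It was 0.21 in astrocytes and VLMCs, 0.25 in endothelial cells and 0.07 in the oligodendrocyte lineage.

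**Figure D5:**
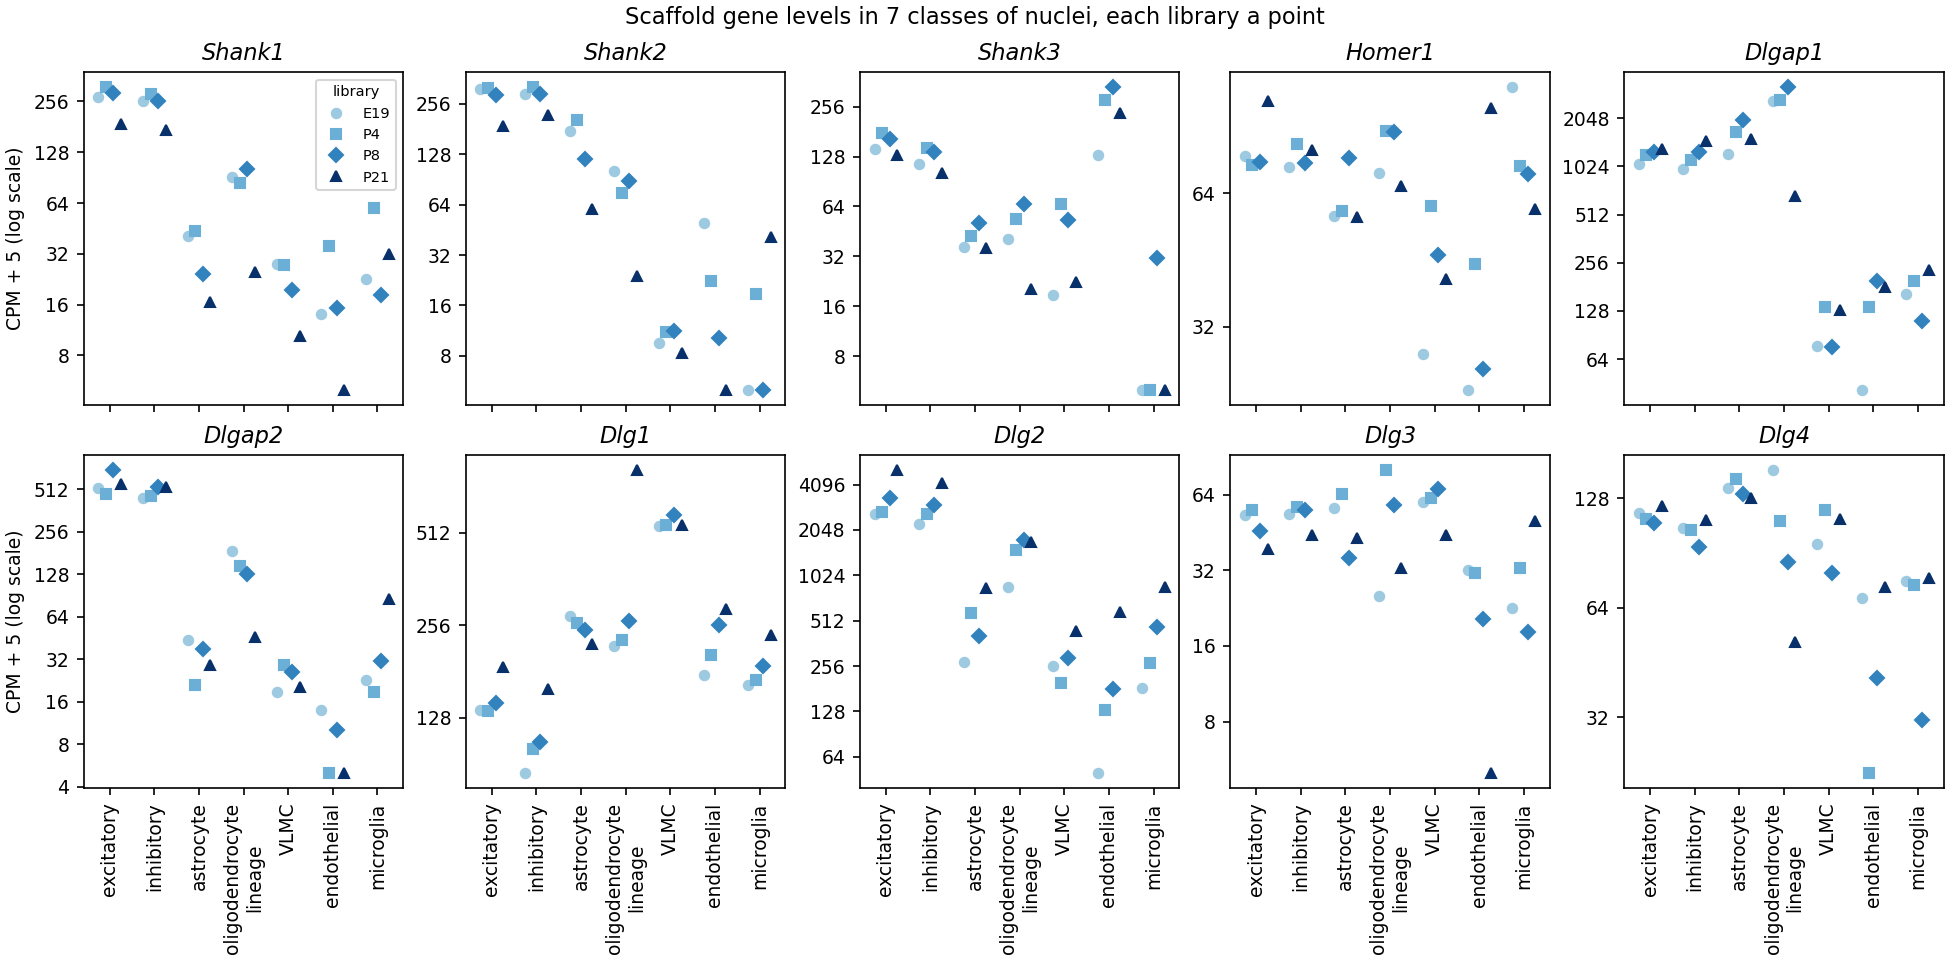
Level of each scaffold gene (CPM plus 5, log scale) in 7 classes of nuclei, with 1 point per library (E19, P4, P8 and P21). In each library Shank1, Shank2, Dlgap2 and Dlg2 are higher in both neuron classes than in the other 5, Dlg1 is highest in VLMCs at 536 to 582 CPM apart from the oligodendrocyte lineage at P21 (814 CPM), and Shank3 reaches 330 CPM in endothelial cells.

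The other postsynaptic density genes followed the members outside neurons. In astrocytes 7 of 64 were higher and 37 lower (median -0.79), in the oligodendrocyte lineage 3 and 28 of 65 (-0.77), in VLMCs 8 and 42 of 65 (-1.28) and in endothelial cells 8 and 40 of 65 (-1.38). Homer3, a Homer of low level in these neurons (4.18 CPM), and Tanc1, a synaptic ankyrin-repeat scaffold (13.5 CPM), rose in all 4 classes, Tanc1 by 2.94, 3.27, 4.63 and 4.41. Camk2a fell by 4.401 in astrocytes, 4.01 in the oligodendrocyte lineage and 5.07 in endothelial cells. Anks1b, an ankyrin-repeat protein of synapses, rose in the oligodendrocyte lineage, by 1.30, to a mean of 4440 CPM.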

How the data were processed

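Nuclei were purified over a sucrose cushion and captured with 10x Genomics 3′ v3 chemistry, per the labels' protocols. Cell Ranger 3.0.2 was used with mm10, per the submitters' processing notes, on a pre-mRNA reference, per the series' design text, so intronic reads count. The deposited matrix holds raw UMI counts, made by the authors and not normalised, and the deposited table of nuclei gives stage, class and subtype. Its percent values (mitochondrial and ribosomal UMIs, as deposited by the authors) and 7 further columns were not used. How the authors filtered nuclei, treated doublets and named classes is not given in the sources used here, and no filter was added here. The UMI and gene totals recomputed for all 9724 nuclei equalled the deposited ones.

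Counts were summed per library and class or subtype. Levels are CPM with exact 95% Poisson intervals, and ratios have 5 CPM added to both sides, a scale on which low genes show less change. Intervals and limits cover counting error only. Class differences were tested with edgeR 4.0.16 (quasi-likelihood, TMM, filterByExpr, library as a block, Benjamini-Hochberg at 0.05), after it was tested on simulated data. Its p-values measure a class difference shared by 4 libraries, which are also the 4 stages. The block is the library, since both classes of a sum pair come from 1 preparation. DESeq2 1.42.0 was an alternative.

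Members and gene lists were chosen with earlier results of these data known. All 10 members are named. Of the other postsynaptic density genes, the up to 4 largest called changes in each direction per comparison were eligible, at 20 CPM or more, and for likeness the 3 highest correlations per member at a mean of 50 CPM, of which 1 is not reported here. Subtypes, fibrous astrocytes, OPCs and endothelial cells were chosen for description once their values were known, as were the VLMC and endothelial tests. Positions are from GENCODE M21 (GRCm38).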

Additional observations from a re-analysis of the deposited data

Results flagged for a closer look

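In the oligodendrocyte lineage the P21 library stood apart from the other 3 for Dlgap1, with a log2 ratio to neurons of -1.05 against 1.17 to 1.34. It also stood apart for Dlg1, at 2.23 against 0.88 to 1.06. Of 30 sets of 4 libraries examined, chance would flag about 1 in 20. The P21 lineage held 187 myelinating nuclei, and the earlier libraries 1. The part of this mix in the ratios was not tested beyond the values within subtypes given above.

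For Dlgap1 the P21 library lay above the E19 library in inhibitory neurons (log2 ratio 0.59) and in VLMCs (0.73) and below it in the oligodendrocyte lineage (-1.97). With 1 library per stage this difference between classes was not tested.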

How the results depend on the processing

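Of the class tests, the excitatory against inhibitory one moved most. The 5 called members became 2 with library size alone, 3 with DESeq2 and 0 with no replicate block (edgeR, where 1 member had an unadjusted p under 0.05), and 2 to 4 without 1 library each. All genes called there went from 2545 to 1654 with DESeq2, 183 with no replicate block and 1371 after thinning to 2000 UMIs, and to 1232 to 2328 without 1 library each. In the oligodendrocyte lineage they went from 3193 to 1603 to 4231 without 1 library each. The cause was not tested. In the class tests signs changed in 5 cases, all of values that were not called. Shank2 in the excitatory against inhibitory comparison was -0.040 with library size alone, -0.027 to 0.060 without 1 library each (negative without E19) and -0.043 after thinning, Dlg4 in astrocytes was -0.0020 with no filter on low counts, and Dlg3 in VLMCs was 0.23 with library size alone. The block changed no call of a member in astrocytes or endothelial cells. It is what holds Dlg1 in the oligodendrocyte lineage (adjusted p = 0.0601 with no replicate block) and Dlg4 in VLMCs (0.094). Of the 30 genes most like the members, 6 were kept with at least 50 nuclei a subtype. The removal of EN7 and the VLMC and endothelial tests were chosen after seeing the data. Depth limits the endothelial values, which rest on 12 to 22 nuclei a library, and the E19 oligodendrocyte lineage, with 47 nuclei. Stage differences rest on 1 library each.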
